A study of Rattus norvegicus with 4 samples.

Results

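Dense runs of H3K9me3 peaks were examined in 2 blocks of rat chromosome 1, a lower block from 54 to 56 Mb and an upper block from 180 to 182 Mb (rn6 build). H3K9me3 is histone H3 trimethylated at lysine 9. The blocks were chosen by their peak density in the same vehicle and BCAA peak lists that are described here, and a peak was a member if its midpoint lay inside a block. Members numbered 154 of the 8929 vehicle peaks (57 in the lower and 97 in the upper block) and 202 of the 16704 BCAA peaks (82 and 120). Together these were 356 of 25633 peaks. Because density chose the blocks, peak numbers and spacing describe them and were not tested.

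The libraries came from rat (Sprague Dawley) mesenchymal stem cells of adipose tissue, stromal progenitors that were kept in high-glucose DMEM with serum but free of the branched-chain amino acids leucine, isoleucine and valine (BCAA). Hydrogen peroxide at 100 µM, an oxidative stress, was present in every group. Vehicle or 3.432 mM BCAA was given for 12 h, and CUT&Tag was run on each with an H3K9me3 antibody and with normal rabbit IgG, which has no chromatin target. In CUT&Tag a transposase tethered to the antibody cuts the DNA beside it. This gave 4 libraries in 4 groups of 1. No difference between vehicle and BCAA has a replicate check, no p-value was computed, and all intervals are exact (Clopper-Pearson) 95% intervals of counting error.

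H3K9me3 is written by the SUV39H and SETDB1 methyltransferases and read by HP1 proteins, and it marks compacted, silent chromatin. It is found over pericentromeric satellites, over transposable elements and over clusters of repeated genes such as those of KRAB zinc finger proteins. In such places the mark can extend over long domains.

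Peaks in the upper block were denser and more evenly spaced than in the lower block. The upper block held 4.85 vehicle and 6 BCAA peaks per 100 kb, and the lower block 2.85 and 4.10. Their 2 Mb flanks on either side held 0.625 and 1.15 (upper) and 0.525 and 0.825 (lower). The gap between neighbouring peaks of a list, from the end of a peak to the start of the next, had a median of 8.02 kb with vehicle and 7.29 kb with BCAA in the upper block. Its quartiles were 4.38 and 17 kb with vehicle and 4.90 and 13.9 kb with BCAA. In the lower block the medians were close to these, at 10.0 and 7.29 kb, but the upper quartiles were wider, at 27.8 and 23.7 kb. The lower quartiles were narrower than in the upper block, at 3.54 kb with vehicle and 3.25 kb with BCAA. Gaps of 5 to 20 kb were the commonest class, with 48 of 96 vehicle and 62 of 119 BCAA gaps in the upper block and 22 of 56 and 32 of 81 in the lower block. Gaps over 100 kb numbered 3 and 0 in the upper block against 6 and 5 in the lower. The lower block was thus a set of dense clusters with empty stretches between them, and the upper block was filled more continuously.

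In bins of 100 kb, the fullest bin of the lower block (55700001 to 55800000) was the same in both lists, with 13 vehicle and 18 BCAA peaks. In the upper block the fullest bins were neighbours, with 13 vehicle peaks in the bin that starts at 180900001 and 17 BCAA peaks in the bin that starts at 180800001. Chromosome 1 had 16 bins with 5 or more vehicle peaks, of which 4 lay in the lower block, 9 in the upper block and 2 in the flanks of the lower block. For BCAA such bins numbered 27, with 6 and 10 in the lower and upper block and 1 in the flanks of each. Of 20 bins per block, 13 in the lower and 17 in the upper block held peaks of both lists, and 3 in each held none. No bin of the upper block had peaks of 1 list alone, against 4 in the lower block.

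**Figure D1:**
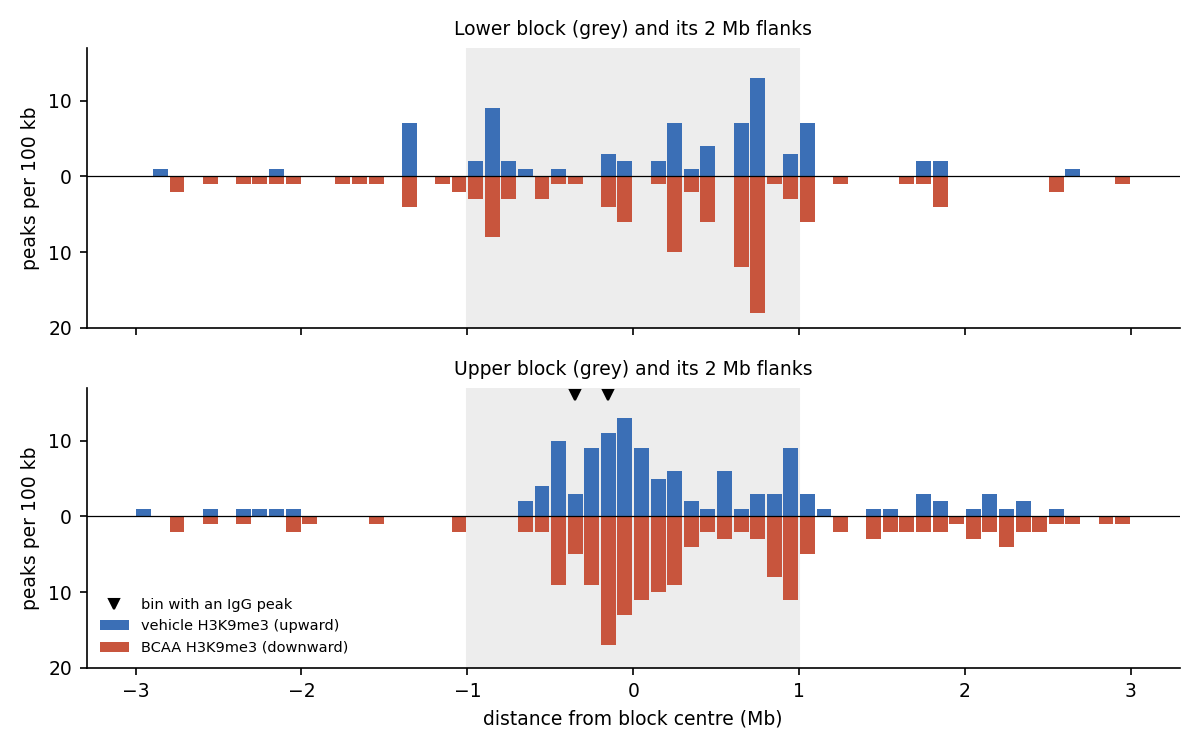
Peaks per 100 kb bin (vertical axis) against distance from the block centre in Mb, with vehicle peaks drawn upward and BCAA peaks downward, the 2 Mb block in grey and bins that hold an IgG peak marked by triangles. The lower block is broken into clusters that reach 13 vehicle and 18 BCAA peaks per bin, and the upper block is empty in its first 3 bins and filled from there on.

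The 2 Mb limits did not coincide with the edges of the peak runs. Peaks of both lists were chained where the gap to the next peak was at most 50 kb. The lower block then held 11 chains, of which 6 had 10 or more peaks and together held 56 of its 57 vehicle and 76 of its 82 BCAA peaks. The chain with the most peaks ran from 55635476 to 55772438 (137 kb, 20 vehicle and 30 BCAA peaks), with empty stretches of 137 kb below and 92.4 kb above it. A chain at the lower end ran from 54042247 to 54300521 (258 kb, 14 and 14 peaks), and 3 others of 123 to 192 kb lay between these. The longest empty stretch was 176 kb (54992527 to 55168757). A last chain crossed the 56 Mb limit, from 55957199 to 56054186 (97.0 kb, 10 and 9 peaks), and its peaks above 56 Mb count in the flank.

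The upper block resolved into 4 chains. A chain of 887 kb (180467030 to 181353881) held 71 vehicle and 89 BCAA peaks, and a second of 564 kb (181498369 to 182062463) held 25 and 33 and crossed the 182 Mb limit. Short chains of 54.0 kb and 25.8 kb made up the rest, and no empty stretch between peaks of the block exceeded 65.6 kb. With gaps of up to 100 kb allowed, all 217 upper-block peaks belonged to 1 chain of 1907 kb (180353238 to 182260606), set apart by 388 kb below and 165 kb above. The first 353 kb of the block therefore held no peak, and the run continued past its upper limit by 11 peaks. With gaps of up to 20 kb the chain with the most peaks was 193 kb, and among peaks with −log10 q of 5 or more 434 kb, so its length depends on these limits.

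Members just inside and just outside the limits show the same. Below 54 Mb the nearest vehicle peak outside lay 300.3 kb away (fold enrichment 4.68), and the first inside was at 54059419 to 54059973 (5.83). Here and below, fold enrichment is the authors' linear ratio of signal to local background. Whether that background came from the same library or from IgG is not stated. On the vehicle list the 54 Mb limit thus fell in an empty stretch, longer than the largest vehicle gap inside the lower block (267 kb). The bin just beyond that stretch, from 53600001 to 53700000, held 7 vehicle peaks. At 56 Mb the last vehicle peak inside was at 55973509 to 55973661 (2.86), and the first outside, at 56017149 to 56017386, had 9.69. The last BCAA peak inside, at 55997170 to 55997355, had 7.29, and the first outside, at 56012144 to 56012306, had 4.70. This upper limit had a stronger vehicle peak outside than inside. At 180 Mb the nearest vehicle peak outside lay 1092 kb below the limit (9.45) and the first inside at 180353238 to 180353413 (2.83). The first BCAA peaks of the blocks were at 54042247 to 54042868 (5.12) and at 180369734 to 180369921 (2.77), and the nearest BCAA peaks below them lay at 53947291 to 53947495 (2.81) and 179964900 to 179965122 (5.4). At 182 Mb, peaks stood within 12 kb on both sides, the last inside being 181988679 to 181988898 with vehicle (4.99) and 181994472 to 181995022 with BCAA (4.52), and the first outside starting at 182002413 (4.84) and 182002418 (5.51). The limits at 56 and 182 Mb thus cut through runs of peaks.

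Members were stronger than most peaks of their own list, more so in the upper block. Median fold enrichment of vehicle peaks was 4.37 (quartiles 3.46 and 6.06) in the lower and 5.78 (3.94 and 7.71) in the upper block, against 2.93 (2.86 and 3.69) outside the blocks. Of BCAA peaks it was 4.36 (3.74 and 5.64) and 6.41 (4.30 and 9.70), against 3.35 (2.82 and 3.99). Vehicle peaks in the flanks had medians of 4.62 at the lower block, or 4.17 without the peaks chained to it, and 2.90 at the upper block. BCAA peaks in the flanks had 3.58 and 3.99. A −log10 q of 5 or more was reached by 15 of 57 vehicle peaks in the lower block (26.3%, from 15.5 to 39.7%) and 46 of 97 in the upper (47.4%, 37.2 to 57.8%), where the whole vehicle list gave 5.61%. With BCAA these were 25 of 82 (30.5%, 20.8 to 41.6%) and 83 of 120 (69.2%, 60.1 to 77.3%), against 5.77% of the whole list. In the flanks, 6 of 21 vehicle peaks at the lower block (28.6%, 11.3 to 52.2%) and 3 of 25 at the upper (12%) reached it. Without the peaks chained to the lower block, 2 of 14 did. With BCAA, 6 of 33 (18.2%, 6.98 to 35.5%) and 5 of 46 (10.9%) did. In this share the lower block was thus not set apart from its flanks with vehicle. The upper block thus held more of each list's strong peaks than the lower block. Of all peaks with −log10 q of 20 or more, it held 40 of 183 with BCAA (21.9%, 16.1 to 28.6%) and 9 of 82 with vehicle (11.0%, 5.14 to 19.8%), and the lower block held 3 and 1. The 887 kb chain had 36 of those 40 BCAA peaks and all 9 vehicle peaks. The chain of 137 kb had all 3 and the single vehicle peak of the lower block.

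The strongest sites present in both lists were ordered by the lower of their 2 fold enrichments. In the upper block the leading site was 180858068 to 180858335 with vehicle (fold enrichment 30.4) and 180858044 to 180858364 with BCAA (26.3). Next came 180852601 to 180852932 with vehicle (21.8) and 180852261 to 180852936 with BCAA (21.0). Here the BCAA end lay 4 bp above the vehicle end and its start 340 bp below the vehicle start, so the BCAA peak was 676 bp wide and the vehicle peak 332 bp. The third pair was 180644769 to 180645064 (26.5) with 180644720 to 180645091 (19.9), and the fourth 180896926 to 180897172 (16.7) with 180896903 to 180897176 (15.6). In the lower block 1 site, in the chain of 137 kb, stood above the rest, with a vehicle peak at 55724322 to 55724597 (20.9) and its BCAA counterpart at 55724346 to 55724934 (15.2). The next were lower, at 55658425 to 55658657 (9.91) with 55658404 to 55658700 (9.28), 55228929 to 55229154 (6.84) with 55228855 to 55229170 (7.11), and 54147251 to 54148079 (7.82) with 54147286 to 54147956 (6.79). All 8 sites but the last were under 700 bp wide in both lists. Their vehicle peaks were all wider than the median vehicle peak of their block (189 bp in the lower and 187 bp in the upper). The BCAA peaks that start at 180852261, 55724346 and 54147286 were wider than 500 bp.

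**Figure D2:**
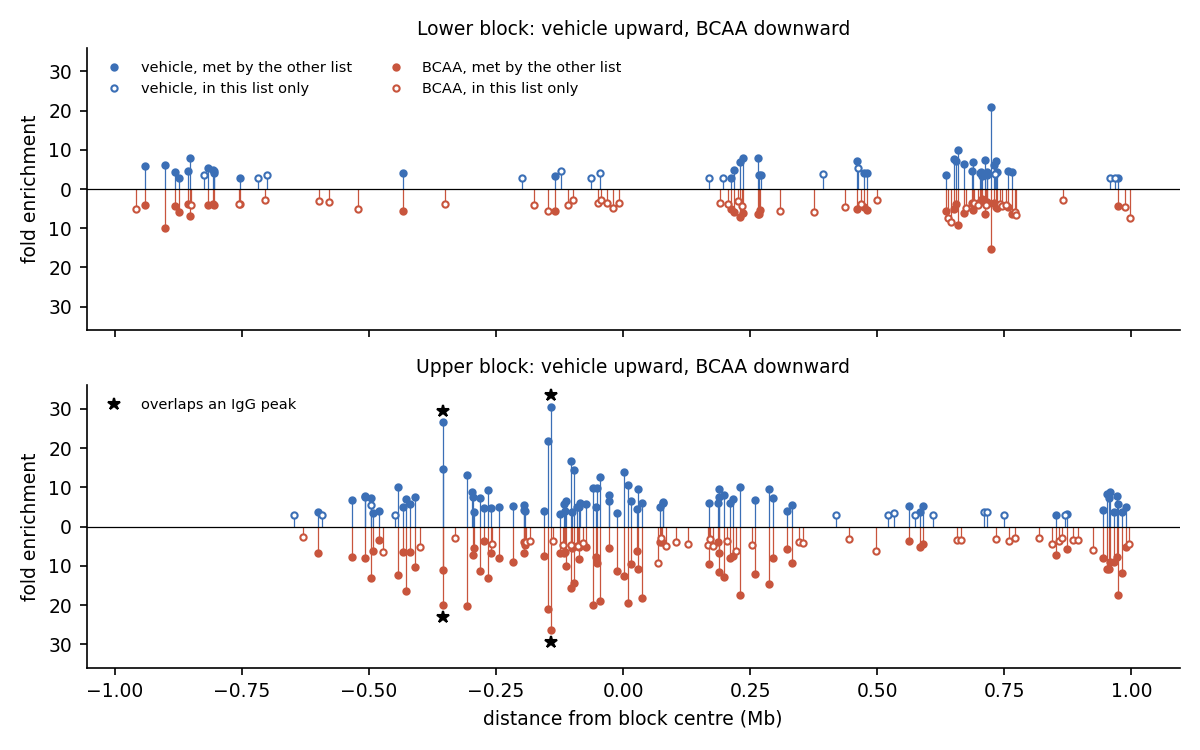
Fold enrichment of every block member (vertical axis, the authors' value) at its distance from the block centre in Mb, vehicle upward and BCAA downward, with filled points for peaks met by the other list, open points for the rest and stars over the peaks that overlap an IgG peak. In the upper block the values reach 30.4 with vehicle and 26.3 with BCAA, and in the lower block 20.9 and 15.2.

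Members were also wider by median than the peaks outside the blocks, and the blocks were alike in this. Median width of vehicle peaks was 189 bp (quartiles 156 and 299) in the lower and 187 bp (159 and 320) in the upper block, against 153 bp (138 and 170) outside. Of BCAA peaks it was 298 bp (187 and 620) and 311 bp (214 and 565), against 186 bp (174 and 210). Flank peaks had medians of 165 and 145 bp with vehicle and 198 and 196 bp with BCAA. A width of at least 500 bp was found for 5 of 57 (8.77%, 2.91 to 19.3%) and 14 of 97 (14.4%, 8.12 to 23.0%) vehicle peaks, against 2.77% of the whole vehicle list. It was found for 26 of 82 (31.7%, 21.9 to 42.9%) and 39 of 120 (32.5%, 24.2 to 41.7%) BCAA peaks, against 6.12% of the whole BCAA list. In the flanks it was found for 2 of 21 vehicle peaks at the lower block (9.52%) and 0 of 25 at the upper. With BCAA it was found for 7 of 33 (21.2%, 8.98 to 38.9%) and 4 of 46 (8.70%, 2.42 to 20.8%). The flank above the lower block had 6 of 16 BCAA peaks (37.5%). The lower block was thus not set apart from its flanks in these shares. These shares compare peaks within a library. No vehicle peak was shorter than 119 bp and no BCAA peak shorter than 163 bp, which bears on any comparison of widths between the libraries.

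Stronger peaks were wider in the whole lists as well, so width was also read within bands of −log10 q. Among BCAA peaks between 2 and 5, 15 of 39 in the lower block (38.5%, 23.4 to 55.4%) and 6 of 24 in the upper (25%, 9.77 to 46.7%) reached 500 bp, against 5.94% outside. Between 5 and 20 the shares were 6 of 22 (27.3%, 10.7 to 50.2%) and 18 of 43 (41.9%, 27.0 to 57.9%), against 13.6%. At 20 or more, 13 of 40 in the upper block (32.5%, 18.6 to 49.1%) reached it and 32.1% outside. BCAA members between 2 and 5, and those of the upper block between 5 and 20, thus reached 500 bp more often than peaks of the same band elsewhere, while the interval of the lower block between 5 and 20 includes the share outside. Among vehicle peaks between 2 and 5 the shares were 1 of 23 (4.35%, 0.11 to 21.9%) in the lower and 5 of 40 (12.5%, 4.19 to 26.8%) in the upper block, against 2.34% outside. Between 5 and 20 they were 3 of 14 (21.4%, 4.66 to 50.8%) and 9 of 37 (24.3%, 11.8 to 41.2%), against 12.5%. At 20 or more, 0 of 9 in the upper block (0 to 33.6%) reached 500 bp, against 25% outside. Only the upper block between 2 and 5 had a vehicle interval that left out the share outside, among these bands. Neighbouring peaks of a library are not replicates, so these intervals describe counting error and are not a test of block against outside.

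**Figure D3:**
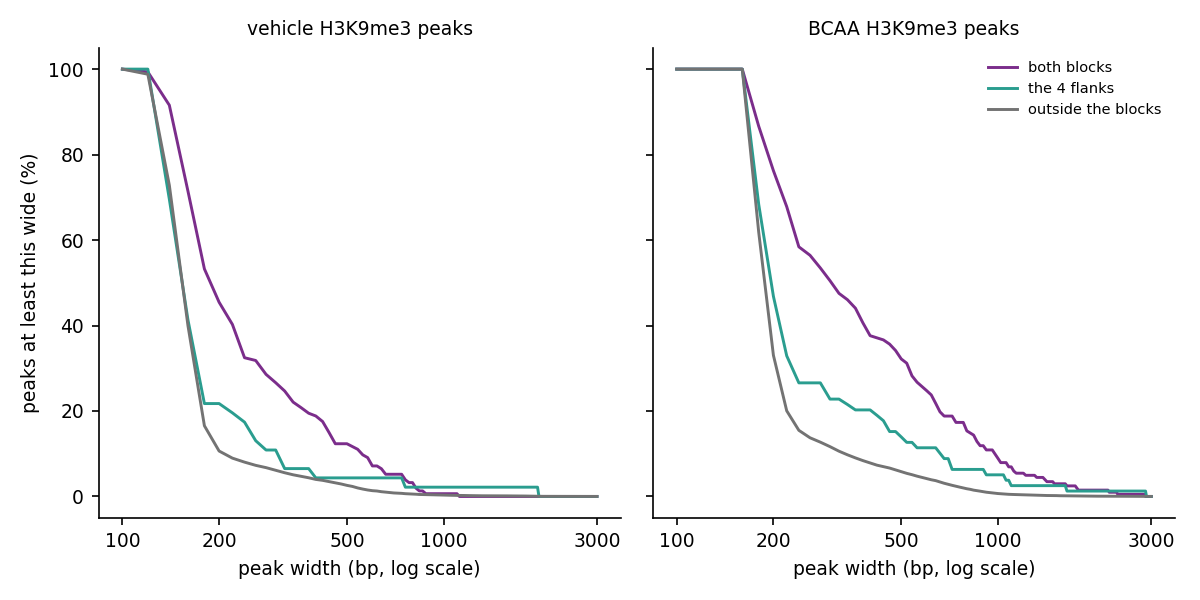
Share of peaks (percent) that are at least as wide as the value on the horizontal axis (bp, log scale) for both blocks together, the 4 flanks and all peaks outside the blocks, by library. At 500 bp the 2 blocks together stand at 12.3% with vehicle and 32.2% with BCAA, against 2.60% and 5.81% outside.

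The widest vehicle peaks of the lower block were 54147251 to 54148079 (829 bp, fold enrichment 7.82), 55729585 to 55730402 (818 bp, 6.06) and 55196543 to 55197136 (594 bp, 2.83). The last of these had no BCAA peak. In the upper block they were 181014062 to 181015165 (1104 bp, 6.48), 181198818 to 181199695 (878 bp, 8.09) and 180805588 to 180806405 (818 bp, 4.18), each met by a BCAA peak. The widest BCAA peaks were 54192610 to 54194816 (2207 bp, 3.89), 54058440 to 54060184 (1745 bp, 3.96) and 55702039 to 55703440 (1402 bp, 3.20) in the lower block, and 180925852 to 180928730 (2879 bp, 5.24), 181076019 to 181078362 (2344 bp, 4.0) and 180971331 to 180973105 (1775 bp, 5.47) in the upper. All 6 were met by a vehicle peak, and none had a fold enrichment above 5.47, well under the strongest members.

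Most vehicle peaks of the blocks overlapped a peak of the BCAA library. An overlap of 1 bp or more with any peak of the other library made a peak count as met. With vehicle, 43 of 57 peaks of the lower block (75.4%, 62.2 to 85.9%) and 84 of 97 of the upper (86.6%, 78.2 to 92.7%) were met, where the whole list gave 16.9%. With BCAA these were 42 of 82 (51.2%, 39.9 to 62.4%) and 80 of 120 (66.7%, 57.5 to 75%), against 8.81% of the whole list. Where the overlap had to cover 50% of both peaks, the shares were 43.9% (30.7 to 57.6%) and 56.7% (46.3 to 66.7%) with vehicle, against 10% outside the blocks, and 30.5% and 45.8% with BCAA, against 5.33%. Under that rule most vehicle peaks of the lower block were not met. BCAA peaks covered 1.92% of the lower and 2.83% of the upper block, and vehicle peaks 0.735% and 1.36%. In the flanks, 10 of 21 vehicle peaks at the lower block (47.6%, 25.7 to 70.2%) and 8 of 25 at the upper (32.0%, 14.9 to 53.5%) were met. Without the flank peaks chained to a block by gaps of up to 100 kb, these shares were 4 of 14 (28.6%, 8.39 to 58.1%) and 5 of 21 (23.8%, 8.22 to 47.2%). BCAA flank peaks were met in 9 of 33 (27.3%, 13.3 to 45.5%) and 8 of 46 (17.4%, 7.82 to 31.4%). Over peaks of all strengths, the shares met were thus lower in the flanks than in the blocks.

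Sharing was also compared among peaks of like strength, where in some bands it was higher in the blocks than over all peaks outside them. All 61 vehicle members with −log10 q of 5 or more were met, 15 in the lower and 46 in the upper block. Outside the blocks 70.4% (65.4 to 75%) were met between 5 and 20 and 84.7% (74.3 to 92.1%) at 20 or more. In the latter band the block intervals, from 9 and 1 peaks, include the share outside. Between 2 and 5, 18 of 23 in the lower block (78.3%, 56.3 to 92.5%) and 35 of 40 in the upper (87.5%, 73.2 to 95.8%) were met, against 20.7% (19.3 to 22.1%) outside the blocks. Under 2 the shares were 10 of 19 (52.6%, 28.9 to 75.6%) and 3 of 11 (27.3%, 6.02 to 61.0%), against 7.59% (6.88 to 8.36%), and the interval of the upper block includes the share outside. Among BCAA peaks between 5 and 20, 16 of 22 (72.7%, 49.8 to 89.3%) and 34 of 43 (79.1%, 64.0 to 90.0%) were met, against 48.8% (45.1 to 52.5%). Between 2 and 5 the lower block gave 20 of 39 (51.3%, 34.8 to 67.6%) and the upper 5 of 24 (20.8%, 7.13 to 42.2%), against 11.5% (10.6 to 12.4%), which the upper interval includes. Under 2 they were 3 of 18 (16.7%, 3.58 to 41.4%) and 2 of 13 (15.4%, 1.92 to 45.4%), against 2.88%, again within the upper interval. At 20 or more, 39 of 40 in the upper block (97.5%) and 98.6% outside were met. In the 4 flanks, vehicle peaks were met in 8 of 16 (50%, 24.7 to 75.3%) between 2 and 5 and 5 of 7 (71.4%) between 5 and 20. BCAA flank peaks were met in 6 of 29 (20.7%, 7.99 to 39.7%) and 7 of 9 (77.8%, 40.0 to 97.2%). The BCAA flank shares were thus close to those of the blocks in these bands, except for the lower block between 2 and 5. Vehicle members between 2 and 5 usually had a BCAA counterpart, whereas most upper-block BCAA peaks of that band had no vehicle counterpart. The choice of blocks used both lists, which is not independent of their sharing, and peaks within a block are not replicates.

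**Figure D4:**
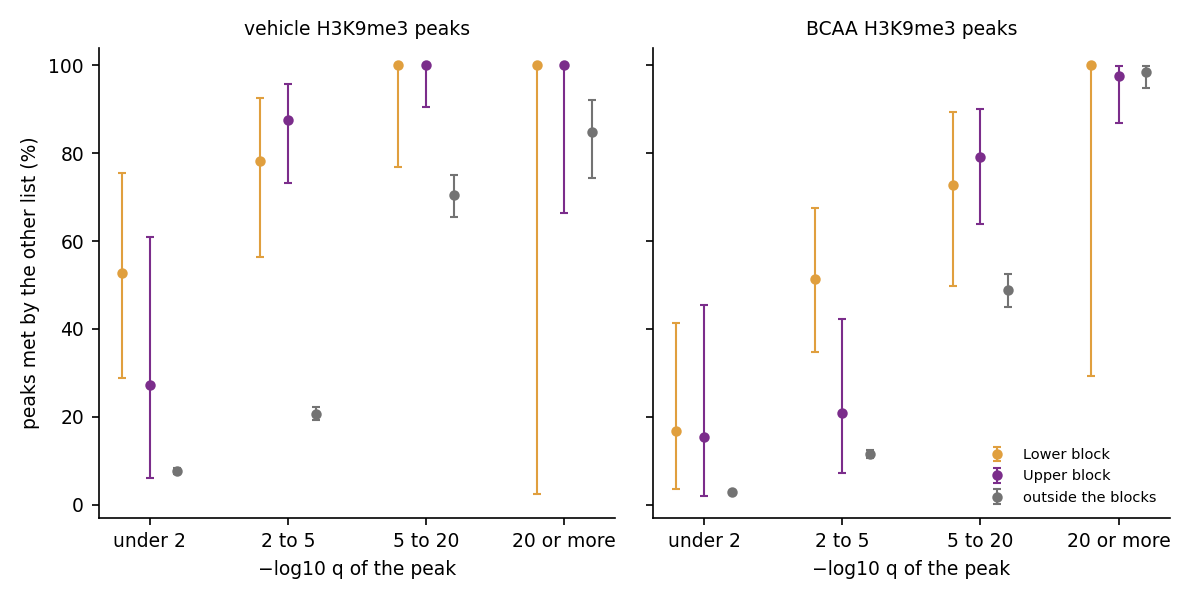
Share of peaks met by the other list (percent, with exact 95% intervals of counting error) by band of −log10 q for the lower block, the upper block and all peaks outside the blocks. Between 2 and 5, vehicle peaks are met at 78.3% and 87.5% in the blocks and at 20.7% outside, and at 20 or more all groups but the vehicle peaks outside (84.7%) stand at 97.5% or above.

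Sharing differed between runs of the same block. In the 887 kb chain of the upper block 69 of 71 vehicle peaks (97.2%) and 65 of 89 BCAA peaks (73.0%) were met, and in the 564 kb chain 17 of 25 (68.0%) and 17 of 33 (51.5%). In the 137 kb chain of the lower block 19 of 20 vehicle peaks (95.0%) and 19 of 30 BCAA peaks (63.3%) were met. The 192 kb chain at 54800106 to 54992526 stood at the other end, with 1 of 5 and 1 of 10. It held no vehicle peak and 1 BCAA peak of −log10 q of 5 or more, so its density came from weak peaks that mostly differed between the lists.

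Vehicle members found in 1 list were weak, and BCAA members found in 1 list were in part stronger. The 14 unmet vehicle peaks of the lower block had a median fold enrichment of 3.19 (met peaks 4.52) and the 13 of the upper block 2.93 (met peaks 6.09), and none reached −log10 q of 5. Of these, 9 in each block were shorter than the shortest BCAA peak. The strongest lay at 55461518 to 55461680 (5.37), 54878199 to 54878354 (4.64) and 54954757 to 54954972 (4.10) in the lower block, and at 180504231 to 180504384 (5.44), 181710577 to 181710739 (3.73) and 181715224 to 181715342 (3.65) in the upper. The 40 unmet BCAA peaks of each block had median fold enrichments of 4.07 (lower, met peaks 5.04) and 3.99 (upper, met peaks 8.10). All BCAA peaks outside, met and unmet together, had 3.35. In the whole BCAA list, again met and unmet together, 5.77% reached −log10 q of 5 or more. Of the unmet BCAA members, 6 in the lower and 10 in the upper block did. Those of highest fold enrichment were 55644852 to 55645090 (8.32), 55638303 to 55638855 (7.34) and 55997170 to 55997355 (7.29) in the lower block, and 181068827 to 181069057 (9.41), 180527592 to 180527777 (6.60) and 181498369 to 181498538 (6.35) in the upper. The peak at 181068827, with −log10 q of 22.9, was the only member at 20 or more without a counterpart. Since the lists hold no read totals, a difference in depth and an effect of BCAA cannot be told apart in these counts.

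Where exactly 1 peak of each list overlapped, the BCAA peak was usually the wider and often enclosed the vehicle peak. There were 41 such pairs in the lower and 76 in the upper block. The BCAA peak was wider in 35 of 41 (85.4%, 70.8 to 94.4%) and 73 of 76 (96.1%, 88.9 to 99.2%), against 80.9% (78.7 to 83.0%) of 1317 pairs outside the blocks. It spanned the whole vehicle peak in 25 (61.0%, 44.5 to 75.8%) and 58 (76.3%, 65.2 to 85.3%), against 47.4% (44.7 to 50.1%). Median widths in the pairs were 226 bp with vehicle and 398 bp with BCAA in the lower block, and 209 and 370.5 bp in the upper. Outside they were 176 and 247 bp. Taken within each pair, the BCAA width divided by the vehicle width had a median of 1.27 (lower) and 1.32 (upper), against 1.27 outside. By this ratio the blocks were thus close to the pairs outside. At least 1 end matched within 20 bp in 20 of 41 (48.8%) and 43 of 76 pairs (56.6%), about as often as outside (51.4%). The shortest peak differed between the lists too (119 and 163 bp), and its part in the wider BCAA peaks was not tested.

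**Figure D5:**
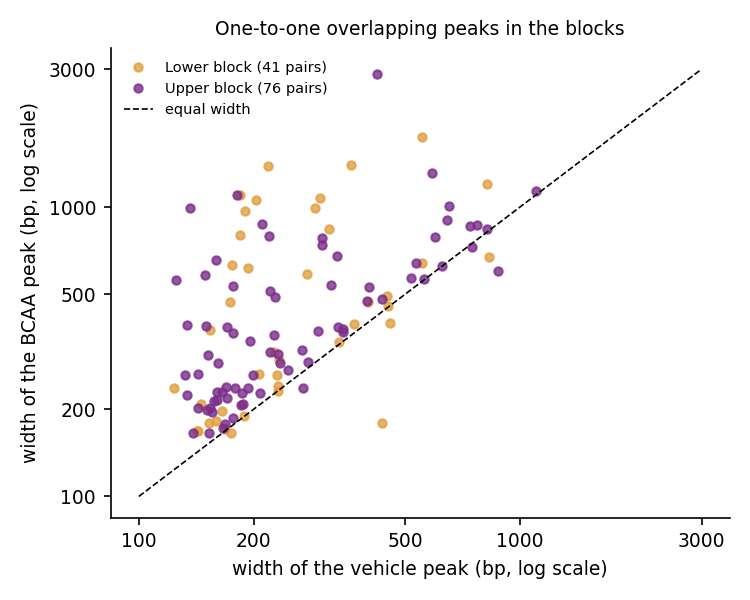
Width of the BCAA peak against width of the vehicle peak (bp, both axes log scale) for the pairs in which exactly 1 peak of each list overlapped, 41 in the lower and 76 in the upper block, with the line of equal width. The BCAA peak is the wider in 108 of 117 pairs, and BCAA widths in the pairs reach 1745 bp in the lower and 2879 bp in the upper block.

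Joined peaks, in which a peak of one list overlapped several of the other, were few and all of 1 kind. A BCAA peak joined 2 vehicle peaks at 1 site of the lower block (1.22% of its BCAA peaks, 0.0309 to 6.61%) and 4 sites of the upper (3.33%, 0.916 to 8.31%), against 0.216% of the whole BCAA list. No vehicle peak of either block met 2 or more BCAA peaks (0 of 154, which allows a share of up to 1.95% by a limit of 3 counts and 2.37% by the exact interval), against 0.0112% of the whole vehicle list. The joined sites were 54192610 to 54194816 in the lower block and 180491723 to 180493211 (1489 bp), 180703088 to 180704713 (1626 bp), 180971331 to 180973105 and 181076019 to 181078362 in the upper. The vehicle peaks that they joined stood 507 to 979 bp apart. The smallest gap between neighbours anywhere was 485 bp in the vehicle list and 654 bp in the BCAA list, so at 4 of the 5 sites the vehicle peaks lay closer than any neighbours of the BCAA list. All 4 such pairs of vehicle neighbours in the blocks were joined by a BCAA peak, against 22 of 36 outside. With both lists held to at least 163 bp, 0 joined peaks were left in the lower and 1 in the upper block. In the flank above the lower block a sixth site, at 56035155 to 56038049, joined vehicle peaks 501 bp apart.

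The BCAA list was the longer in both blocks, by a smaller ratio than elsewhere. The number of BCAA peaks divided by that of vehicle peaks was 1.44 (1.01 to 2.05) in the lower block and 1.24 (0.939 to 1.63) in the upper, against 1.88 (1.83 to 1.93) outside the blocks. In the flanks it was 1.57 (0.882 to 2.86) at the lower and 1.84 (1.11 to 3.13) at the upper block. These ratios come from the peak numbers that chose the blocks and are a description only. Joining moved them little. With overlapping peaks of both lists taken as 1 locus, the upper block had 93 loci with a vehicle peak and 120 with a BCAA peak, a ratio of 1.29, and the lower block 56 and 82, a ratio of 1.46. Of these loci 80 of 133 (60.2%, 51.3 to 68.5%) in the upper and 42 of 96 (43.8%, 33.6 to 54.3%) in the lower block were held by both lists. At −log10 q of 5 or more the ratio was 1.80 (1.24 to 2.65) in the upper block and 1.67 (0.845 to 3.4) in the lower, against 1.94 (1.73 to 2.18) outside. By covered length the blocks stood close to the rest, with 27.1 kb of vehicle and 56.6 kb of BCAA peaks in the upper block (ratio 2.09) and 14.7 and 38.3 kb in the lower (2.61), against 2.47 outside.

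Short vehicle peaks were rarer in the blocks. Peaks shorter than any BCAA peak made up 17 of 57 vehicle peaks in the lower block (29.8%, 18.4 to 43.4%) and 32 of 97 in the upper (33.0%, 23.8 to 43.3%), against 63.6% (62.6 to 64.6%) outside. With both lists held to 163 bp, this ratio was 2.05 (1.39 to 3.07) in the lower and 1.85 (1.35 to 2.54) in the upper block, against 5.17 (4.98 to 5.37) outside. The ratios of the blocks and of all peaks outside thus stood further apart with that limit. This follows from the shares of short vehicle peaks, since the limit took out no BCAA peak, so it adds no further result.

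IgG peaks marked 2 members of the upper block in each H3K9me3 list (of 97 vehicle and 120 BCAA peaks) and none of the lower. In the whole lists, 11 of 8929 vehicle and 9 of 16704 BCAA peaks overlapped a peak of either IgG list. The vehicle IgG list had 1 peak in the upper block, at 180644836 to 180645004 (fold enrichment 9.0), and the BCAA IgG list had 2, at 180644860 to 180645041 (7.03) and 180858084 to 180858260 (7.98). The flanks held no IgG peak, and the lists held 16 and 11 peaks in all. Both sites were among the 3 strongest shared sites of the upper block, with −log10 q of 175.5 and 147 with vehicle and 411 and 423 with BCAA. Without the peaks at IgG peaks, the share of vehicle peaks met in the upper block was 86.3% and that of BCAA peaks 66.1%. Only 2 members of each list were taken out and all of them were met, so the shares could hardly change. No conclusion on IgG signal and sharing is drawn from this. The part of antibody-independent signal in weaker members was not tested, since the lowest −log10 q in the IgG lists was 2.05 with vehicle and 2.20 with BCAA.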

How the data were processed

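Peaks came from 4 CUT&Tag libraries, 1 per group, with groups taken from the sample titles. The authors deposited 1 broad peak list per library. Per the submitters' processing notes, BWA, MACS2, deepTools and ChIPseeker were used with the rn6 build; no version or setting is listed. Use of IgG as a control in calling is not stated. Each deposited peak has a score (10 times its −log10 q, rounded down, not used), a fold enrichment (a linear ratio to local background) and a −log10 p and −log10 q. Each was used within its own list, except to order shared pairs by the lower of their 2 fold enrichments, and a given −log10 q limit can select unlike sites in the 2 lists. The lists give no read totals, so depth is unknown.

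Blocks, flanks and lists were chosen with earlier results of these data known. Named regions are, per block, the 3 widest peaks of each list, the 4 shared pairs of highest lower fold enrichment, the 3 peaks of highest fold enrichment found in 1 list only, all joined peaks, the first and last peaks and all IgG peaks. Coordinates are 1-based. Overlap, chaining (50 kb) and fragment numbers were tested on simulated data. Alternatives were q limits, equal list lengths, a common shortest width, merging, other overlap rules and other chain gaps. No gene, repeat or sequence is assigned, since rn6 sequence and annotation were not used here. Python 3.11.15, numpy 2.4.6, scipy 1.17.1, pandas 2.3.3 and matplotlib 3.10.9 were used.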

Additional observations from a re-analysis of the deposited data

How the results depend on the processing

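Of 80 recomputed values, 52 stayed within the interval of the reported value (for counts, within 1.5 times it; for chain lengths, equal to it). The cause of the other shifts was not tested, except that limits shorten the lists by construction. Limits of −log10 q and width were applied to both lists here, so only peaks of the other list that passed them could count as met. The shares by band of −log10 q in the Results counted any peak of the other list, so they differ from those below. At −log10 q of at least 5, the share of vehicle peaks met was 86.7% in the lower and 100% in the upper block, that of BCAA peaks in the upper block 50.6%, the upper ratio of peak numbers 1.80, median vehicle width 232 and 239.5 bp, the upper median vehicle gap 13.6 kb, and the chain with the most peaks 134 and 434 kb. With a common shortest width, vehicle peaks were met at 87.5% and 93.8%, upper BCAA peaks at 50%, the upper ratio was 1.85, median vehicle width 231 and 247 bp, and joined BCAA peaks numbered 0 and 1. The joined peak of the lower block was also lost at −log10 q of at least 2 (0 left). Requiring 50% of the peak gave 31.7% and 45.8% of BCAA peaks met, and reciprocal 50% gave 30.5% and 45.8% of BCAA and 43.9% and 56.7% of vehicle peaks. A peak within 5 kb was found for 64.6% of lower BCAA peaks. The chain with the most peaks, reported as 137 and 887 kb, was 193 kb in the upper block with gaps of up to 20 kb, and 419 kb (lower) and 1907 kb (upper) with up to 100 kb. Counting loci was added after seeing the data. No paired analysis was possible because every condition was a single library. Depth is unknown, so a site without a peak in 1 list may only be undetected there.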

Other observations

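A smaller run lay in the flank below the lower block. The bin from 53600001 to 53700000 held 7 of that flank's 9 vehicle and 4 of its 17 BCAA peaks. In the flank above the lower block the strongest site stood at 56789908 to 56790072 with vehicle (fold enrichment 19.5) and 56789907 to 56790074 with BCAA (15.1). Within each list it exceeded every lower-block member but the peaks at 55724322 (20.9) and 55724346 (15.2).

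If MACS2's usual formulas apply, the deposited fold enrichment and p-value of an evenly covered peak together fix its number of overlapping fragments. A whole number (tolerance 0.001 in −log10 p) came out for 15 of 57 vehicle peaks in the lower block (26.3%) and 13 of 97 in the upper (13.4%), against 61.5% outside. Of BCAA peaks it came out for 6 of 82 (7.32%) and 9 of 120 (7.5%), against 51.1%. The number was 2 for 10 of those 15 (66.7%) and 8 of those 13 vehicle peaks (61.5%), against 87.9% of such vehicle peaks outside. Fragment numbers were thus not recovered for most members.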
